A study of Arabidopsis thaliana with 9 samples.

Results

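Callus of an Arabidopsis thaliana line that overexpresses PNET1 was compared with wild-type callus of ecotype Col-0, with 3 mRNA libraries each out of the 9 in the series. The remaining 3 libraries came from callus of a pnet1 mutant and are given where they help to place a value. The rule took the count columns of the overexpression line and of wild type and tested every expressed gene, which were 19698 of the 32833 genes in the table. In all genotypes, hypocotyl pieces from seedlings grown in the dark were kept 4 days on callus induction medium and 10 days on shoot induction medium before RNA was taken, with no further treatment. The labels call the material a line. The sources used here do not give the promoter that drives PNET1 in it, the number of independent transformants or the mutant allele. They also do not say whether replicates were separate cultures, and the spread that the p-values rest on may therefore be technical.

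PNET1 is a membrane protein found at the plant nuclear pore complex, the channel through which RNA and protein pass between nucleus and cytoplasm. The pore is built from nucleoporins, and importins, exportins and the small GTPase Ran carry cargo through it. Callus is a proliferating tissue close in character to root primordium tissue, and on shoot induction medium, which is rich in cytokinin relative to auxin, it greens and forms shoot meristems, leaves and a shoot epidermis. Expression of leaf, epidermis, photosynthesis, hormone and stress genes in such tissue therefore reflects both how many cells of each kind are present and how much RNA each cell makes. In bulk callus, fewer cells of a type and less RNA per cell cannot be told apart.

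The overexpression libraries held 17572782 to 18450951 counts, the pnet1 libraries 16946951 to 18112167 and the wild-type libraries 16890848 to 19493969, so that a level of 1 CPM, the count scaled to library size, stood for 16.7 to 19.3 counts. The first principal component of the overexpression and wild-type libraries, with 45.3% of the variance, separated the genotypes, at -6.2, -21.3 and -26.5 in overexpression libraries 1, 2 and 3 and at 9.5, 15.1 and 29.5 in wild-type libraries 1, 2 and 3. Overexpression library 1 thus lay nearest to wild type and wild-type library 3 farthest from the overexpression line, and counts without these libraries are given beside the results that rest on them. Transcripts of ribosomal RNA genes, with those of the organelles included, took 0.0444 to 0.0757% of counts in the overexpression line. They took 0.0437 to 0.102% in pnet1 and 0.139 to 0.19% in wild type. Of 3 nuclear ribosomal RNA genes tested, 0 were called and all 3 had a negative log2 fold change of overexpression over wild type, with a median of -0.09. This median does not give the change of the summed share. In wild type the organelle genomes took smaller shares, so most of the ribosomal share was nuclear. The mitochondrial genome took 0.0106 to 0.0165% in the overexpression line, 0.0131 to 0.0275% in pnet1 and 0.0262 to 0.0335% in wild type. The seed markers CRA1, CRC, OLEO1, AT2S1 and AT2S3 and the pollen markers VGD1 and PRK2A had no count in any library. For the 2 mesophyll markers, the summed level was 1965 to 2802 CPM in the overexpression line, 649 to 751 CPM in pnet1 and 1470 to 1939 CPM in wild type, and for the 8 epidermis and stomata markers it was 689 to 941, 214 to 270.3 and 494 to 648 CPM.

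PNET1 itself was by far the most changed gene. Its transcript, at locus AT1G07970 on the minus strand of chromosome 1 (TAIR10, 2469218 to 2472806), was counted 82787, 85817 and 96701 times in the overexpression libraries, 27, 19 and 25 times in the pnet1 libraries and 630, 524 and 544 times in the wild-type libraries. The level was 4906 ± 312 CPM in overexpression callus, 1.35 ± 0.211 CPM in pnet1 and 31.0 ± 1.92 CPM in wild type (SD, n = 3 each), and the libraries of the 3 genotypes did not overlap. The log2 fold change of overexpression over wild type was 7.31 (SE 0.07, edgeR adjusted p = 1.065e-21), a 158-fold higher level. PNET1 alone took 0.462, 0.488 and 0.524% of all counts in the 3 overexpression libraries. With this locus taken as PNET1 from background knowledge, the counts of all 3 groups matched their labels.

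The genes beside PNET1 on the chromosome did not share this rise. Of the 5 nearest tested protein-coding genes on each side, 10 in all, AT1G07940 (Elongation factor 1-alpha 4) was called, with a log2 fold change of -0.13 (adjusted p = 0.0384). PDIL5-1, a protein disulfide isomerase gene whose annotated end overlaps that of PNET1 by 99 bases on the opposite strand, had 28.3, 30.9 and 31.1 CPM in overexpression callus and 31.5, 32.6 and 32.1 CPM in wild type (log2 fold change -0.09, SE 0.06, adjusted p = 0.388). The sources used here do not say whether counting used the strand of the reads. AT1G07985, an expressed gene of no stated function, had 1.77, 1.55 and 1.19 CPM in overexpression callus, 0.171, 0.295 and 0.22 CPM in pnet1 and 0.83, 1.14 and 0.425 CPM in wild type, and the difference from wild type missed the threshold (log2 fold change 0.92, SE 0.34, adjusted p = 0.0871).

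The gene that rose most after PNET1 was AT2G20725, which encodes a CAAX amino terminal protease family protein, a class of membrane proteases. It had 267, 265 and 273 CPM in overexpression callus, 14.95, 15.12 and 16.92 CPM in pnet1 and 16.6, 18.6 and 18.1 CPM in wild type. The 3 overexpression libraries were close together and far above all 6 others. The log2 fold change over wild type was 3.92 (SE 0.06, adjusted p = 4.437e-19), or 15.1-fold, whereas pnet1 and wild type differed by -0.18 (adjusted p = 0.0514). Per length, the deposited FPKM averaged 151 in overexpression callus and 9.94 in wild type for AT2G20725, and 1827 and 11.5 for PNET1.

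AT2G20725 lies on the minus strand of chromosome 2 (TAIR10, 8933317 to 8935496), and its neighbour in the opposite direction, TOM2AH3 (AT2G20740, plus strand, 8935537 to 8937554), fell. TOM2AH3 is described in the file as Tetraspanin-19, a member of a family of membrane proteins. It had 4.66, 5.44 and 4.04 CPM in overexpression callus, 14.1, 14.1 and 14.5 CPM in pnet1 and 12.3, 14.3 and 14.3 CPM in wild type. Every overexpression library was below every other library (log2 fold change over wild type -1.53, SE 0.12, adjusted p = 1.165e-06). The start sites of the pair are 41 bases apart and 40 bases lie between the genes. They are shown because this gap separates the second-largest rise from one of the largest falls of the comparison. The sequence is the plus strand of chr2:8935497-8935536, read from the RefSeq copy of the TAIR10 genome, in lower case since no motif is marked.
AT2G20725 to TOM2AH3: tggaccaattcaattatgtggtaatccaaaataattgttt
Among the 10 nearest tested protein-coding genes around AT2G20725, TOM2AH3 and AT2G20760 (Clathrin light chain 1, log2 fold change -0.20, adjusted p = 0.0057) were called. The nearest of them on the other side, AT2G20710, a gene for a mitochondrial pentatricopeptide repeat protein, had 1.5, 1.89 and 1.89 CPM in overexpression callus and 1.56, 1.44 and 1.75 CPM in wild type.

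**Figure D1:**
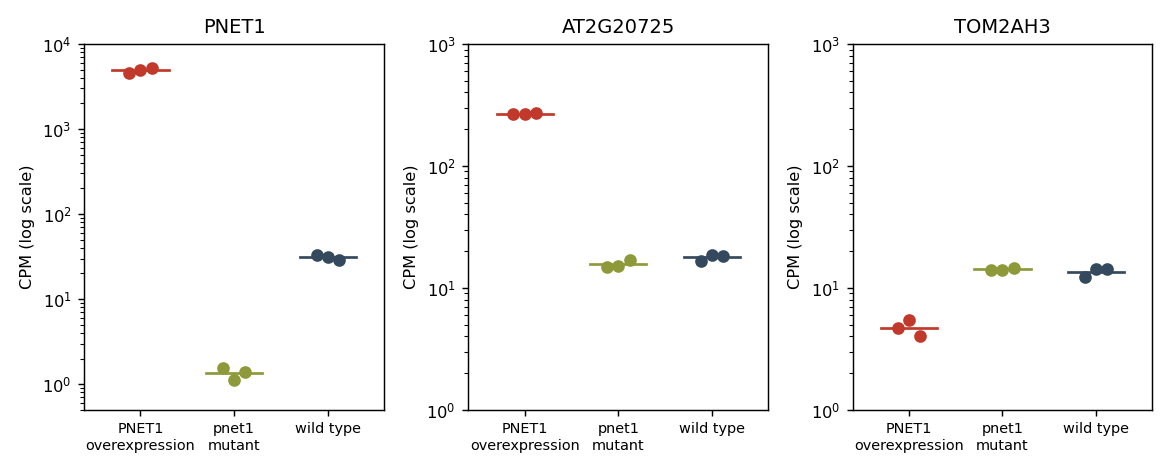
Level of PNET1, AT2G20725 and TOM2AH3 in CPM on a log axis, 1 point per library and a line at the mean of each genotype. PNET1 is separated in all 3 genotypes, while AT2G20725 is high and TOM2AH3 low in the overexpression libraries alone, with pnet1 and wild type close together.

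**Figure D2:**
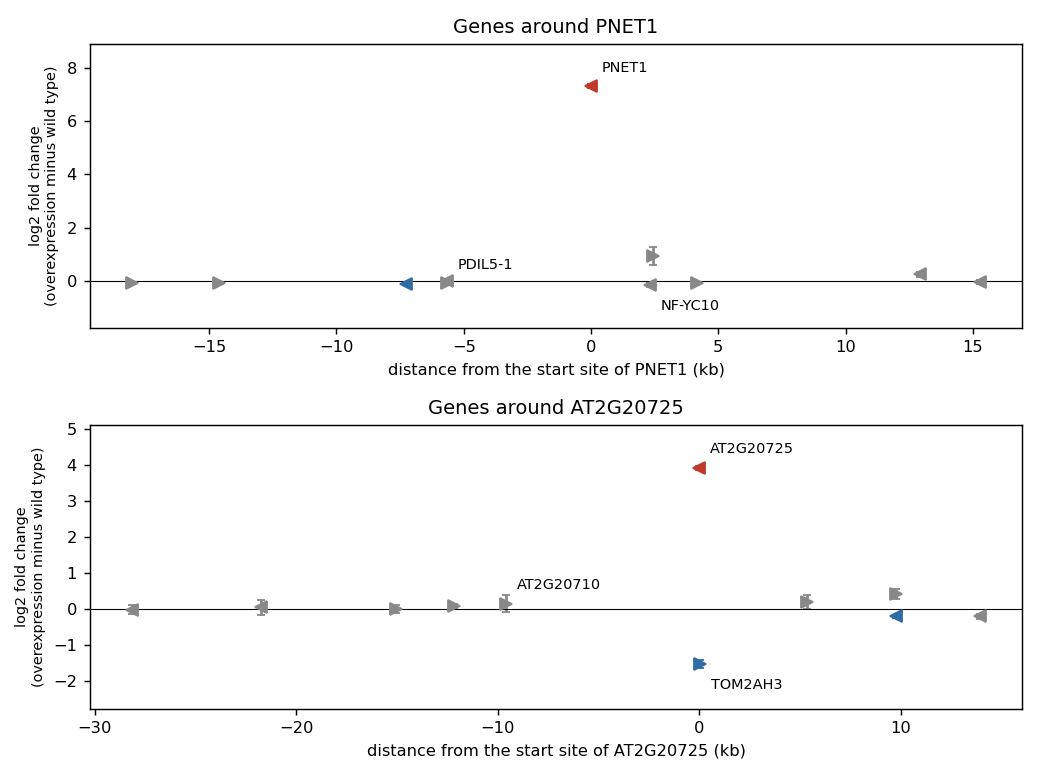
Log2 fold change of overexpression over wild type for PNET1 (top) and AT2G20725 (bottom) and the 5 nearest tested protein-coding genes on each side, against the distance between start sites in kb along the plus strand. Triangles point in the direction of transcription, bars are 1 SE, red marks called rises, blue called falls and grey genes that were not called. The 2 genes at the centre stand far above their neighbours, and TOM2AH3, at the same place as AT2G20725, lies below zero.

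Away from these loci the overexpression line differed from wild type in many genes by small amounts. At an adjusted p under 0.05, 1175 genes were higher (5.97% of the 19698 tested) and 1033 were lower (5.24%), 2208 in all (11.2%). A change of at least 2-fold was called for 39 higher and 29 lower genes, together 0.345% of those tested. The median absolute log2 fold change was 0.39 among genes that rose and 0.29 among genes that fell, and the median over all genes was near zero. Genes that fell were more abundant, with a median wild-type level of 58.8 CPM, against 22.4 CPM for those that rose and 19.7 CPM for all. The libraries of overexpression and wild type did not overlap for 5585 genes (28.4%), among them 2123 of the 2208 called. In the same fit the pnet1 mutant had 2480 genes higher than wild type (12.6%) and 3428 lower (17.4%). Both comparisons use the same wild-type libraries, so they are given side by side without a test between them. Without overexpression library 1 the called genes numbered 3125, without libraries 2 and 3 they were 1111 and 944, and without wild-type libraries 1, 2 and 3 they were 2198, 1498 and 737.

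**Figure D3:**
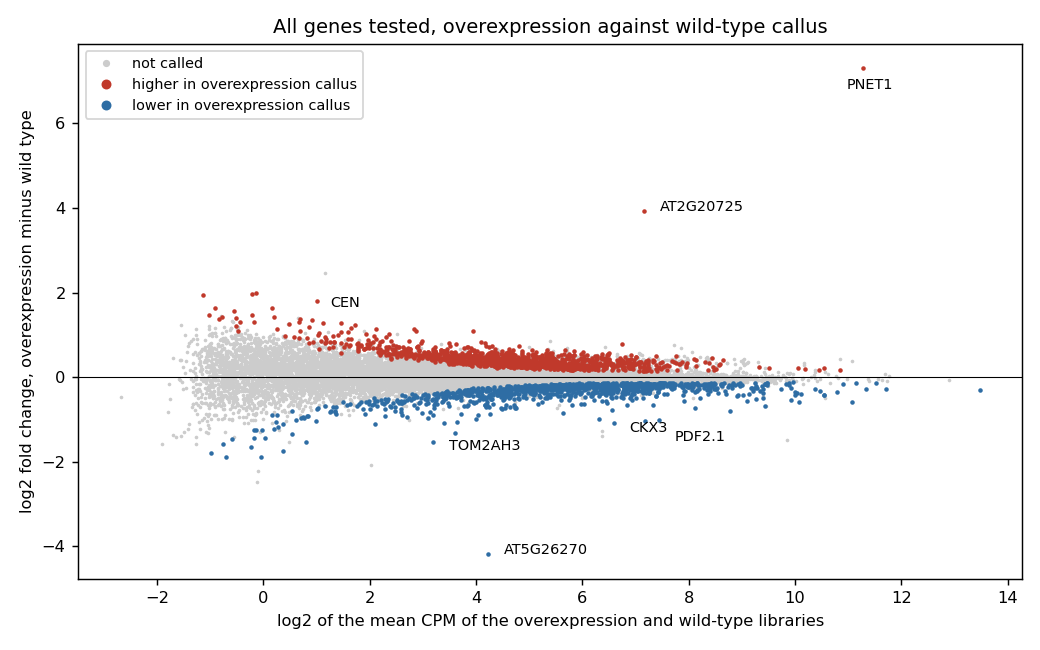
Log2 fold change of overexpression over wild type against the log2 of the mean CPM of both groups for the 19698 genes tested, with called rises in red, called falls in blue and other genes in grey. PNET1 and AT2G20725 stand alone at the top, AT5G26270 at the bottom, and most called genes lie within 1 log2 unit of zero.

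The other large rises were in genes at low levels. CEN (AT2G27550), a relative of the flowering repressor TERMINAL FLOWER 1, had 2.72, 3.66 and 3.07 CPM in overexpression callus, a mean of 0.17 CPM in pnet1, and 0.779, 0.659 and 1.22 CPM in wild type. It rose by 1.81 on the log2 scale over wild type (SE 0.27, adjusted p = 0.00075). ORS1, a gene of the ARGOS family that promotes organ size, had 10.2, 10.9 and 8.3 CPM in overexpression callus and 4.67, 4.67 and 4.04 CPM in wild type (log2 fold change 1.13, SE 0.14, adjusted p = 0.000167), and its pnet1 mean of 8.2 CPM was also above wild type (0.88, adjusted p = 0.00015). QQS, a gene specific to Arabidopsis that is known to alter the balance of carbon and nitrogen, had 4.16, 4.06 and 3.51 CPM in overexpression callus and 1.71, 1.26 and 1.81 CPM in wild type (1.28, SE 0.25, adjusted p = 0.00498). ORA59, an ethylene response factor that acts where ethylene and jasmonate signals meet, had 2.77, 3.26 and 3.24 CPM against 1.97, 1.02 and 0.797 CPM in wild type (1.27, SE 0.27, adjusted p = 0.00741). In each of these 4 genes all 3 overexpression libraries lay above all 3 wild-type libraries, as the rule required of all genes picked as largest rises. APY5, AT2G30230 and AT1G52110 also rose by between 1.14 and 1.23 and kept the call without each single library. TZF5, AT3G59340 and AT2G15830 rose by 1.36, 1.30 and 1.18. The call for TZF5 was lost in 7 of the 9 sets with 1 library left out, held in those without overexpression library 1 or wild-type library 1, and was lost with pnet1 out of the fit (adjusted p from 0.0141 to 0.127 over the libraries left out). AT3G59340 lost its call without overexpression library 2 or wild-type library 2 or 3 (0.0159 to 0.108), and AT2G15830 without wild-type library 3 (0.00995 to 0.0551).

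The largest falls joined a gene of unknown function, organelle transcripts and enzymes of hormone metabolism. AT5G26270, described as an unknown protein, had 2.72, 1.37 and 1.73 CPM in overexpression callus, 1.91 CPM on average in pnet1, and 59.5, 14.9 and 32.2 CPM in wild type. The wild-type libraries were all above the rest but differed widely among themselves (log2 fold change -4.20, SE 0.66, adjusted p = 0.0137), and the call was lost without overexpression library 2 or 3 or wild-type library 3 (adjusted p up to 0.0679, from 0.00358 over the libraries left out). CYP94B3, an enzyme that inactivates the active jasmonate conjugate, had 1.05, 0.916 and 0.701 CPM in overexpression callus and 2.65, 2.46 and 2.66 CPM in wild type (-1.54, SE 0.26, adjusted p = 0.00186). ACS8, an ethylene synthesis enzyme, had 8.98, 7.38 and 7.87 CPM in overexpression callus, 31.5 CPM on average in pnet1 and 14.1, 17.1 and 19.6 CPM in wild type (-1.07, SE 0.11, adjusted p = 6.95e-05). In both genes every overexpression library lay below every wild-type library, as the rule required of all genes picked as largest falls. WRKY63, of a family of defence regulators, had 2.72, 3.15 and 2.37 CPM in overexpression callus and 4.62, 4.79 and 8.19 CPM in wild type (adjusted p = 0.00495). The defensin-like genes PDF2.1 and PDF2.3 fell by 1.02 and 1.05 on the log2 scale. PDF2.1 had 140.0, 108 and 95.1 CPM in overexpression callus against 212, 226 and 257 CPM in wild type, and 397 CPM on average in pnet1. The call for PDF2.3 was lost without overexpression library 2 or 3 or wild-type library 2 or 3 (adjusted p up to 0.0886, from 0.0113 over the libraries left out). MYB101 fell by 1.04, a call lost without wild-type library 3 (adjusted p = 0.0649, from 0.00712 over the libraries left out).

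ORF107A, an uncharacterized mitochondrial gene, had 7.43, 8.01 and 5.45 CPM in overexpression callus, 8.21 CPM on average in pnet1 and 19.5, 15.4 and 17.01 CPM in wild type (log2 fold change -1.32, SE 0.19, adjusted p = 0.0024). The chloroplast gene PSAB, a photosystem I core subunit, had 1.11, 0.859 and 0.485 CPM in overexpression callus and 3.06, 1.26 and 1.91 CPM in wild type (-1.36, SE 0.37, adjusted p = 0.0264). Its call was lost without overexpression library 2 or 3 or wild-type library 1 or 3 (adjusted p up to 0.121, from 0.0129 over the libraries left out). Of 23 mitochondrial genes tested, 1 was called, 19 had a negative log2 fold change and the median was -0.34. Of 33 chloroplast genes tested, 2 were called, both lower, with a median of -0.03. The mitochondrial transcripts are part of the mitochondrial share of counts, which, like the ribosomal share, was lower in the overexpression libraries, as given above. The chloroplast share overlapped, at 0.00444 to 0.00529% in the overexpression line and 0.00506 to 0.00656% in wild type. The part of the RNA make-up in the falls of ORF107A and PSAB was not tested.

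Among the most abundant called genes the changes were slight. PER42 (a peroxidase), GRP7 (an RNA-binding protein under clock control), FSD1 (an iron superoxide dismutase) and FAD2 (the oleate desaturase) rose by 0.17 to 0.21 on the log2 scale. GRP7 had 1643, 1640 and 1543 CPM in overexpression callus and 1452, 1366 and 1350 CPM in wild type (adjusted p = 0.00532). BGLU18, a glucosidase of the endoplasmic reticulum bodies that releases abscisic acid from its glucose ester, was the most abundant of these, with 10780, 10580 and 9181 CPM in overexpression callus against 12410, 12280 and 12840 CPM in wild type (-0.30, SE 0.06, adjusted p = 0.00993). MLP28 fell by 0.28, with 2413, 2383 and 2166 CPM against 2999, 2639 and 2844 CPM in wild type (adjusted p = 0.00244). PER34 and PCKA fell by 0.28 and 0.13. The call for PER42 was lost without overexpression library 2 or 3 or wild-type library 2 or 3 (adjusted p from 0.00184 to 0.131 over the libraries left out), that for FSD1 without overexpression library 2 or 3 or wild-type library 3 (0.00129 to 0.121) and that for FAD2 without overexpression library 2 or wild-type library 3 (0.00249 to 0.102). PER34 lost its call without overexpression library 1 or 3 or wild-type library 3 (0.0133 to 0.0699), and PCKA lost it in 7 of the 9 sets (0.0422 to 0.141).

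To describe functions, 54 lists of genes were counted. The share of tested members called is read against the 5.97% of all genes that rose and the 5.24% that fell. Counts in pnet1 are read against the larger shares there, 12.6% of all genes higher and 17.4% lower than wild type. The highest shares of risen members were in leaf polarity and growth (42.4%), epidermis with cuticle and stomata (41.0%), flavonoid synthesis (37.5%) and glucosinolate synthesis (31.0%). Where a list has 0 calls in a direction below, edgeR and DESeq2 both made 0. At an unadjusted p under 0.05, there were then 0 lower members among epidermis and histone genes, 1 among clock genes and 2 among meristem genes. In the same way there were 0 higher members among importin and xylem genes and 1 each among rapid stress and WRKY genes.

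**Figure D4:**
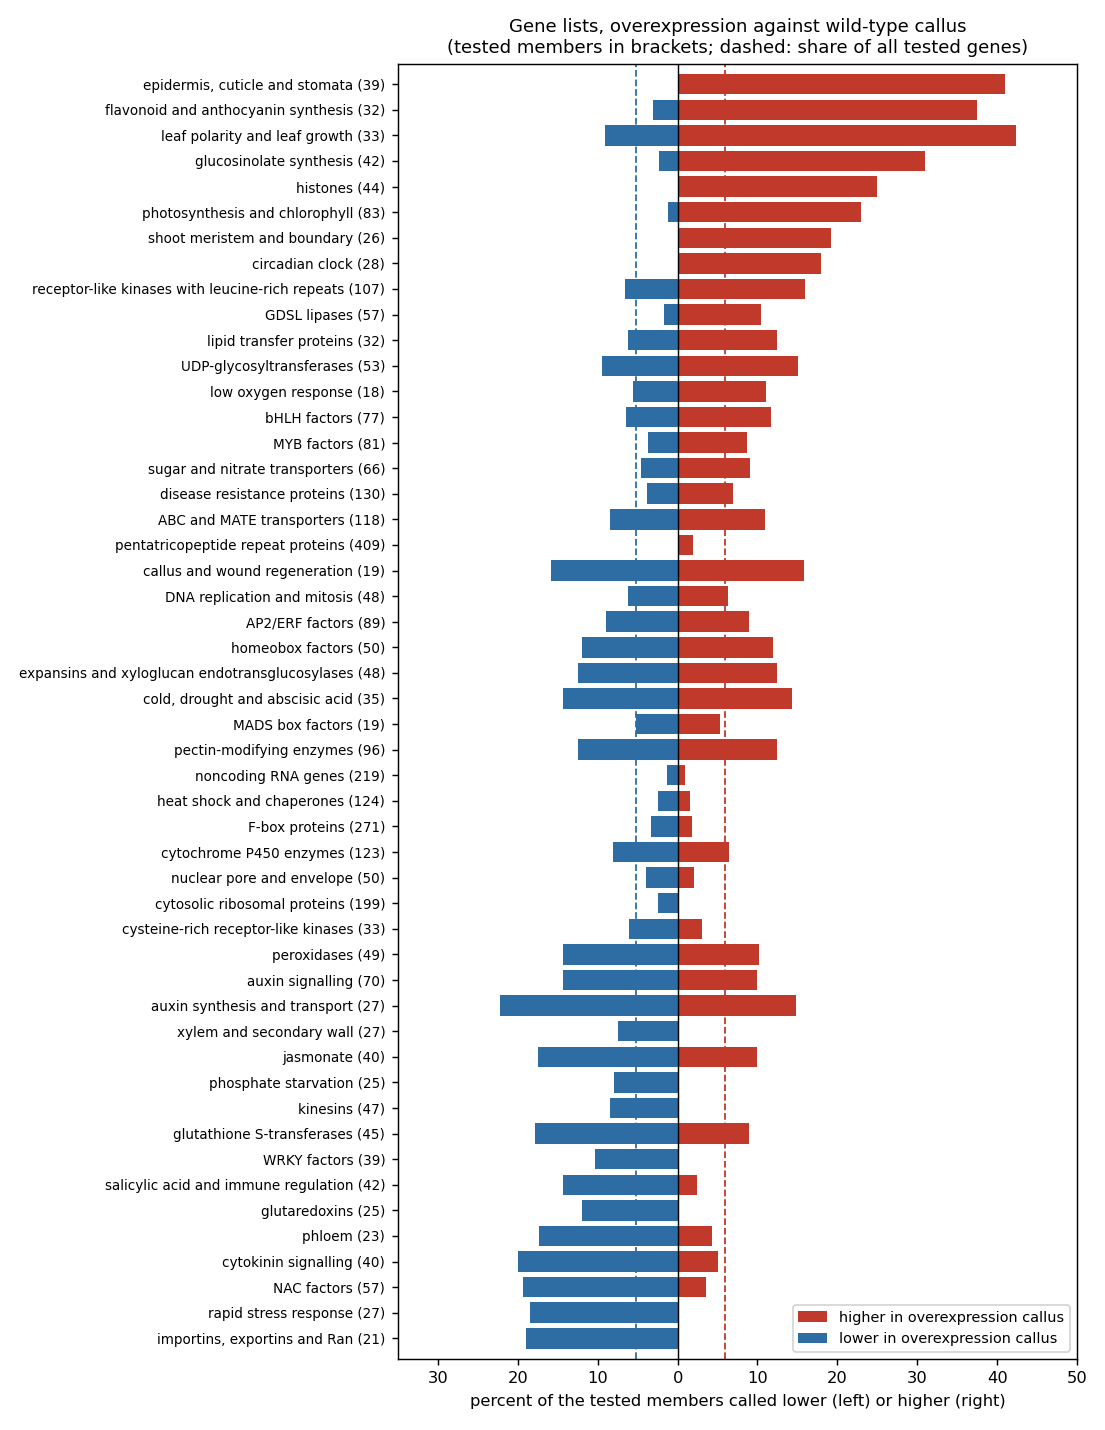
Percent of the tested members of each list called higher (red, to the right) or lower (blue, to the left) in overexpression callus, ordered by the difference between the 2 shares, with the number of tested members in brackets, the lists under 15 tested members left out, and dashed lines at the share of all tested genes. The lists of shoot epidermis, leaf and secondary metabolism lie at the top, and the importin, rapid stress, NAC and cytokinin lists at the bottom.

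Genes of the shoot epidermis and of the stomatal lineage rose in overexpression callus where they were called. Of 39 tested members, 16 rose and 0 fell, 38 had a positive log2 fold change and the median was 0.47, beside a share of risen genes of 5.97% over all genes. In pnet1 callus 35 of the 39 were called lower than wild type, with a median of -1.26. BASL, which marks the polar side of the dividing stomatal precursor, had 3.38, 4.24 and 4.53 CPM in overexpression callus, 0.84 CPM on average in pnet1 and 2.08, 2.22 and 1.54 CPM in wild type (log2 fold change 1.06, SE 0.22, adjusted p = 0.00588). EPF2, a peptide that limits entry into the lineage, had 5.6, 6.87 and 7.01 CPM in overexpression callus and 3.43, 4.13 and 2.55 CPM in wild type (0.95, SE 0.19, adjusted p = 0.00471). TMM, a receptor-like protein that acts with the ERECTA receptors on such peptides, had 19.5, 26.4 and 28.5 CPM in overexpression callus and 15.2, 16.9 and 12.5 CPM in wild type (0.74, SE 0.17, adjusted p = 0.0243). In all 3 genes the overexpression libraries lay above the wild-type libraries, with overexpression library 1 the lowest of its group each time.

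The receptor genes ER, ERL1 and ERL2 rose by 0.54, 0.60 and 0.51, and SPCH and SCRM, the bHLH factors that start and drive the lineage, rose by 0.59 and 0.50. MUTE, FAMA and EPF1, which act later in the lineage or feed back on it, had log2 fold changes of 0.57, 0.47 and 0.40 and were not called (adjusted p = 0.286, 0.096 and 0.383). Among cuticle genes, GPAT8, a cutin synthesis enzyme, had 22.0, 26.2 and 27.6 CPM in overexpression callus and 16.45, 16.04 and 15.04 CPM in wild type (0.67, SE 0.09, adjusted p = 0.000419), and GPAT4, BDG, LTPG1 and the wax genes CER2, CER3 and CER10 also rose. The master regulators of epidermal identity ATML1 and PDF2 had 0.44 and 0.52 and were not called (adjusted p = 0.273 and 0.133). Of the 8 epidermis and stomata markers 1 was called, and their summed level was higher in every overexpression library than in any wild-type library, as given above. The largest part of that sum was PDF1, which was not called (adjusted p = 0.0594). PDF1 had 357, 343 and 436 CPM in overexpression callus and 308, 270 and 238 CPM in wild type. For ATML1 and CER6 the values of the groups overlapped. The part of the number of epidermal cells in these values was not tested. The 16 risen genes numbered 25 without overexpression library 1, 8 without library 2, 7 without library 3 and 6 without wild-type library 3. The calls for BASL, EPF2 and GPAT8 held without each single library, and that for TMM was lost without overexpression library 2 or 3 or wild-type library 1 or 3 (adjusted p up to 0.087, from 0.000402 over the libraries left out).

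Promoters of 2 of the 16 risen epidermal genes, BASL and TMM, held an L1 box, the short element known to be bound by epidermal homeodomain factors. The box was searched as TAAATGCA or TAAATGTA on both strands in the 250 bases before each annotated start, and it was present in 4.45% of the 19641 promoters of tested nuclear genes, in 5.54% of those of risen genes and in 3.4% of those of fallen genes. Of the 39 epidermal genes, 6 had it (15.4%). The sequences are printed 5′ to 3′ on the strand of the gene from the RefSeq copy of the TAIR10 genome, with the L1 box in capitals. The window of BASL is chr5:24489837-24490086 and that of TMM is chr1:30129650-30129899, both on the minus strand, and no other searched motif overlaps the box.
BASL: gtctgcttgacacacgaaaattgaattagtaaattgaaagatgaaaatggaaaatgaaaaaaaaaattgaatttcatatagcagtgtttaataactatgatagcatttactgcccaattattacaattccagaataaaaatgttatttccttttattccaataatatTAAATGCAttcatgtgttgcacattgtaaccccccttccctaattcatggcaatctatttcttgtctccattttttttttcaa
TMM: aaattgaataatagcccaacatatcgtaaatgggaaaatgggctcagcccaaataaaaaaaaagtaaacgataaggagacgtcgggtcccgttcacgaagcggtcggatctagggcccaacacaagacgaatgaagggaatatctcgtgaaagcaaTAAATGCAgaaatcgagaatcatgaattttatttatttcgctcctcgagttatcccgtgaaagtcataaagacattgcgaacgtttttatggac

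Leaf genes mostly rose where they were called. Of 33 tested genes of leaf polarity and growth, 14 rose and 3 fell, with a median log2 fold change of 0.45, where pnet1 had 6 higher and 21 lower. The risen genes were YAB2, FIL, YAB3 and YAB5, which mark the lower side of the leaf, WOX1 at the margin, AS1, the leaf growth factors TCP2, TCP3, TCP5, TCP10 and TCP24, and GRF1, GRF2 and GRF5. TCP3 had 2.99, 3.32 and 3.51 CPM in overexpression callus, 0.796 CPM on average in pnet1 and 2.08, 1.62 and 1.33 CPM in wild type (0.96, SE 0.22, adjusted p = 0.00998). YAB2 had 5.43, 6.98 and 7.39 CPM in overexpression callus and 4.2, 4.25 and 4.2 CPM in wild type (0.65, SE 0.16, adjusted p = 0.0149). GRF5 and WOX1 rose by 0.71 and 0.62, and for these 4 genes the libraries of the genotypes did not overlap. The fallen genes ATHB8, PHV and CNA, at -0.30, -0.20 and -0.16, all encode class III HD-ZIP factors, known for the upper leaf side, the meristem and the vasculature. Without overexpression libraries 2 and 3 the risen genes numbered 9 and 7, and without wild-type library 3 they numbered 5, with 1 fallen gene left there and without overexpression library 2. TCP3 lost its call without wild-type library 3 (adjusted p = 0.0638, from 0.00666 over the libraries left out) and YAB2 without overexpression library 2 or 3 or wild-type library 3 (0.00244 to 0.0801). GRF5 lost its call without overexpression library 3 or wild-type library 2 or 3 (0.0098 to 0.151), and WOX1 without overexpression library 2 or 3 or wild-type library 2 or 3 (0.0127 to 0.122).

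Shoot meristem genes rose in 5 of 26 cases (19.2%) and fell in 0, with a median of 0.20 and with 18 at a positive log2 fold change. Among the shoot regeneration markers, WUS, ESR1, CUC1 and CUC2 had log2 fold changes of -0.38, -0.39, -0.28 and -0.03, and STM had 0.41. None of these was called (adjusted p = 0.608, 0.330, 0.118, 0.906 and 0.0929). CLV3, the peptide that limits the stem cell pool, had 5.55, 4.24 and 4.8 CPM in overexpression callus, 7.65 CPM on average in pnet1 and 3.17, 2.63 and 2.66 CPM in wild type (0.78, SE 0.19, adjusted p = 0.0132). Both other genotypes were thus above wild type for CLV3, with pnet1 at 1.44 over wild type (adjusted p = 1.744e-05). CLV1, its receptor kinase, had 25.5, 29.5 and 36.1 CPM in overexpression callus, 15.9 CPM on average in pnet1 and 22.3, 20 and 17.8 CPM in wild type (0.60, SE 0.12, adjusted p = 0.00729). ATH1, KNAT1 and LSH4 rose by 0.48, 0.30 and 0.27. Of these 5, the count was 8 without overexpression library 1, 3 without library 2, 3 without wild-type library 2 and 1 without wild-type library 3. CLV1 kept its call without each single library, and CLV3 lost it without wild-type library 3 (adjusted p = 0.0599, from 0.0122 over the libraries left out).

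Most genes of photosynthesis and chlorophyll were at a higher level in overexpression callus, and fewer passed the test. Of 83 tested members, 19 rose (22.9%) and 1 fell (1.2%), 76 had a positive log2 fold change and the median was 0.38. In pnet1, 77 were called lower than wild type, with a median of -1.05. The fallen gene was the chloroplast-encoded PSAB. PSB28, a photosystem II assembly protein, had 27.1, 31.4 and 35.3 CPM in overexpression callus, 11.3 CPM on average in pnet1 and 23.2, 23.2 and 19.2 CPM in wild type (0.52, SE 0.10, adjusted p = 0.00383). CLH1, a chlorophyllase, had 92.1, 101 and 120 CPM in overexpression callus and 79.4, 73.0 and 65.2 CPM in wild type (0.52, adjusted p = 0.0185). PORB, of chlorophyll synthesis, OHP1 and LIL3.1, relatives of the light-harvesting proteins, and the photosystem I subunit PSAE1 rose by 0.49 to 0.52. Of the light-harvesting and Rubisco genes, LHCB4.1, LHCB6, RCA and RBCS-1A at 0.36, 0.41, 0.42 and 0.43 were not called (adjusted p = 0.115, 0.104, 0.137 and 0.128), while LHCA4 rose by 0.30 (adjusted p = 0.024).

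The number of risen photosynthesis genes depended on single libraries. It was 60 without overexpression library 1, 8 without library 2, 8 without library 3 and 8 without wild-type library 3, and DESeq2 called 40. It was 47 without robust dispersion and 11 with pnet1 left out of the fit. CLH1 lost its call without overexpression library 2 or wild-type library 2 or 3 (adjusted p from 0.00337 to 0.0607 over the libraries left out). The summed mesophyll markers were higher in every overexpression library than in any wild-type library, but narrowly. The lowest overexpression library had 1965 CPM and the highest wild-type library 1939 CPM, and most of that sum was RBCS-1A. Neither RBCS-1A nor LHCB1.1 was called (adjusted p = 0.128 and 0.292), and the LHCB1.1 values of the groups overlapped. The part of the number of green cells in these values was not tested.

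A G-box, CACGTG, known as a binding element of light-regulated bHLH and bZIP factors, was present in the 250-base window of 7 of 18 risen nuclear photosynthesis genes with a promoter (38.9%), PSB28, OHP1, NOL, PSBTN, LHCA4, PSAE2 and HCF107. It was present in 13 of the list's 74 promoters (17.6%), in 7.28% of all promoters of tested genes, in 8.35% of those of risen genes and in 7.48% of those of fallen genes. The element reads the same on both strands. The windows of PSB28 (chr4:14149599-14149848) and OHP1 (chr5:418841-419090), both on the plus strand, are shown with the G-box in capitals as the 2 of these genes that rose most.
PSB28: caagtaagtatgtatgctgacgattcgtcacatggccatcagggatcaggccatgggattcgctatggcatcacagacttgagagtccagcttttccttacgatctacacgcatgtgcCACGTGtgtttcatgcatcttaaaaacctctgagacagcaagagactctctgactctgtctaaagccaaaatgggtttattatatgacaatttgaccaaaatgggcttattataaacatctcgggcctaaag
OHP1: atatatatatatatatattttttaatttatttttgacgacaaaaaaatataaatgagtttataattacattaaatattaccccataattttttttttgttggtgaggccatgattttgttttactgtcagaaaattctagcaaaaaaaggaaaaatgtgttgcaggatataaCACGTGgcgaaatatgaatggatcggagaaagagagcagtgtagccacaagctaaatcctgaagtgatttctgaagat

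Genes of flavonoid and of glucosinolate synthesis rose more often than they fell. Of 32 tested flavonoid and anthocyanin genes, 12 rose and 1, C4H of the general phenylpropanoid pathway, fell by 0.14, and the median was 0.40. In pnet1, 3 were higher and 22 lower. The risen genes came from early and late parts of the route but did not cover every step. They were 4CL3, CHS, TT5 and TT7 in the early steps, DFR and LDOX in the anthocyanin steps, TT19 in transport to the vacuole, and the decorating enzymes UGT78D1, UGT78D2, UGT79B1, AT3AT1 and 5MAT. TT5, chalcone isomerase, had 31.7, 33.5 and 39.6 CPM in overexpression callus, 10.0 CPM on average in pnet1 and 22.5, 24.4 and 24.1 CPM in wild type (0.56, SE 0.08, adjusted p = 0.000595). TT19 had 25.3, 31.8 and 33.5 CPM in overexpression callus and 20.1, 20.5 and 16.7 CPM in wild type (0.67, SE 0.13, adjusted p = 0.00954). Both kept their call without each single library. DFR and LDOX rose by 0.56 and 0.63 and lost the call without overexpression library 2 or wild-type library 2 or 3 (adjusted p up to 0.0907 and 0.071, from 9.796e-05 and 0.000814). The 12 risen genes numbered 7 without overexpression library 2, 7 without wild-type library 2 and 5 without wild-type library 3. The call of C4H was lost without any single overexpression library, without wild-type library 3 or pnet1 library 3, with library totals or upper-quartile scaling, and with pnet1 left out of the fit.

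Of 42 tested glucosinolate genes, 13 rose and 1 fell, with a median of 0.25, and in pnet1 6 were higher and 22 lower. Most of the risen genes belong to the aliphatic branch, which builds these sulfur compounds from methionine. MYB28, its main activator, had 14.4, 13.0 and 15.3 CPM in overexpression callus, 3.48 CPM on average in pnet1 and 9.76, 8.26 and 7.71 CPM in wild type (0.73, SE 0.11, adjusted p = 0.00111). MAM3 and BAT5, for chain elongation and chloroplast transport, rose by 1.34 and 0.64, and BCAT4, IPMI1, IPMDH1 and CYP79F2 of the same route rose by 0.48 to 0.63. MAM3 had 2.11, 2.92 and 3.07 CPM in overexpression callus and 1.14, 1.26 and 0.797 CPM in wild type. ESP, which sets the breakdown product of glucosinolates, rose by 0.82. The fallen member, CYP71B15 at -0.32, is the last enzyme of camalexin synthesis, a phytoalexin that shares early steps with indole glucosinolates. MYB28, MAM3 and BAT5 kept their calls without each single library, and ESP lost its call without overexpression library 2 or 3 or wild-type library 2 or 3 (adjusted p up to 0.152, from 0.00349). The 13 risen genes numbered 8 without overexpression library 2, 6 without library 3, 7 without wild-type library 2 and 8 with pnet1 left out of the fit.

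**Figure D5:**
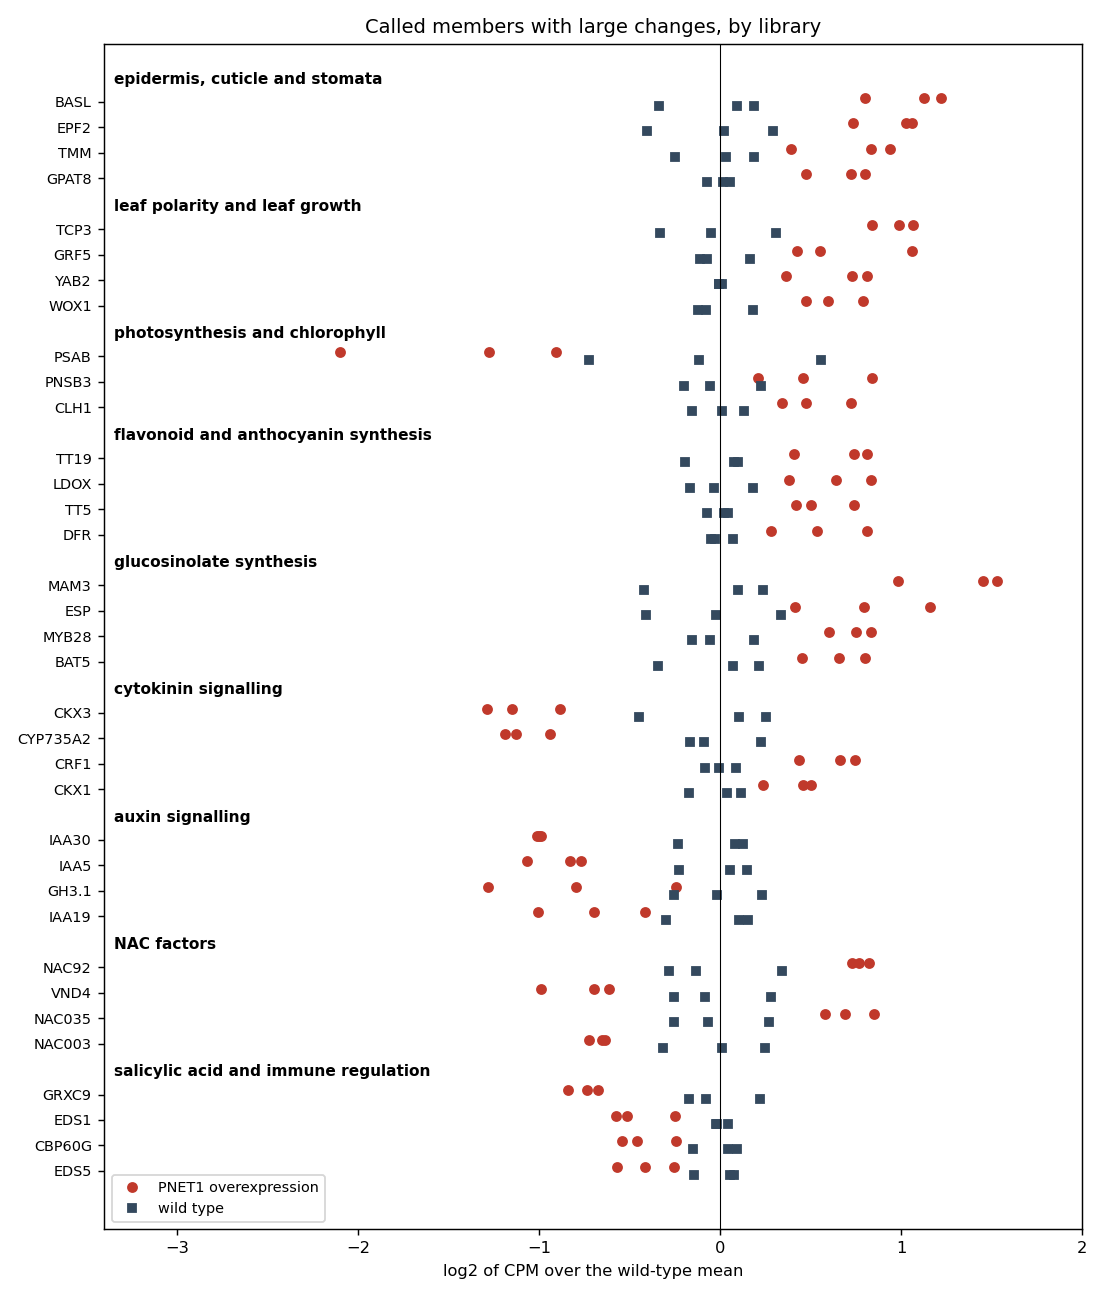
Level of called members with large changes in 9 lists, as log2 of CPM over the wild-type mean, with 1 circle per overexpression library and 1 square per wild-type library. Epidermis, leaf, flavonoid and glucosinolate genes lie to the right of zero in the overexpression libraries and most of the auxin and immune genes to the left. The cytokinin genes lie on both sides, with CKX3 and CYP735A2 to the left and CRF1 and CKX1 to the right. The groups touch or overlap in PNSB3 and GH3.1.

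Of the genes of cytokinin metabolism and response, more fell than rose. Of 40 tested members, 2 rose (5%) and 8 fell (20%), beside 5.24% of all genes that fell, and the median was -0.06. In pnet1 9 were higher and 5 lower, beside 12.6% and 17.4% of all genes. The fallen group held a degrading enzyme (CKX3), synthesis enzymes (CYP735A2 and IPT1) and the type-A response regulators ARR4, ARR5, ARR8, ARR9 and ARR15, which cytokinin induces and which damp the signal. CYP735A2, the hydroxylase that makes trans-zeatin forms, had 7.43, 6.24 and 6.53 CPM in overexpression callus, 20.3 CPM on average in pnet1 and 13.4, 12.7 and 16.6 CPM in wild type (-1.08, SE 0.12, adjusted p = 6.964e-05). CKX3 had 70.9, 53.8 and 59.2 CPM in overexpression callus, 202 CPM in pnet1 and 96.3, 141 and 156 CPM in wild type (-1.10, SE 0.20, adjusted p = 0.0199). For both enzymes the order was overexpression below wild type below the mean of pnet1. The response regulators fell by less, from -0.39 for ARR15 to -0.24 for ARR5. CRF1, a cytokinin response factor, and CKX1 rose by 0.62 and 0.40. The 8 fallen genes numbered 2 without overexpression library 2, 4 without library 3, 4 without wild-type library 2, 2 without wild-type library 3 and 4 with pnet1 left out of the fit. CYP735A2 kept its call without each single library, and CKX3 lost it without overexpression library 2 or 3 or wild-type library 2 or 3 (adjusted p up to 0.0847, from 0.000253). CRF1 lost its call in 5 of the 9 sets with 1 library left out and with DESeq2 (adjusted p from 0.0349 to 0.123 over the libraries left out), and CKX1 without overexpression library 3 or wild-type library 3 (0.0135 to 0.0977).

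Of 70 tested auxin signalling genes, 7 rose (10%) and 10 fell (14.3%), with a median near zero. The 7 that rose were the auxin-conjugating enzyme genes DFL2 and GH3.5, both by 0.52, AT1G48660 by 0.58, SAUR78 by 0.49, the repressor gene IAA28 by 0.45, and the response factor genes ARF1 and ARF2 by 0.26 and 0.17. Among the 10 were 6 of the Aux/IAA repressors, IAA5, IAA9, IAA13, IAA17, IAA19 and IAA30, the conjugating enzymes GH3.1 and GH3.3, SAUR32, and ARF5, the response factor MONOPTEROS. IAA30 had 10.5, 10.7 and 10.6 CPM in overexpression callus, 28.8 CPM on average in pnet1 and 18.1, 23.2 and 22.5 CPM in wild type (log2 fold change -1, SE 0.09, adjusted p = 1.608e-05). IAA5 had 14.7, 14.1 and 11.9 CPM in overexpression callus and 21.3, 26.0 and 27.7 CPM in wild type (-0.88, SE 0.11, adjusted p = 0.000258). IAA19 had 13.3, 10.9 and 8.79 CPM in overexpression callus and 14.3, 19.6 and 18.98 CPM in wild type (-0.68, SE 0.14, adjusted p = 0.0116). The overexpression libraries lay below wild type in all 3 genes. GH3.1 fell by 0.72, with libraries that overlapped between the genotypes. The count of fallen genes stayed within 1.5 times of 10 in every alternative, and that of risen genes was 3 and 4 without overexpression libraries 2 and 3 and 4 without wild-type library 2 or 3. IAA19 lost its call without overexpression library 2 or wild-type library 3 (adjusted p = 0.0531 and 0.0567, from 0.000434), and GH3.1 lost it in 7 of the 9 sets with 1 library left out (adjusted p up to 0.148, from 0.000705).

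The auxin response element, searched as TGTCTC or TGTCGG on both strands and known to be bound by auxin response factors, was present in the 250-base window of 5 of the 10 fallen auxin genes (50.0%), among them IAA5, IAA13, IAA19 and GH3.3. It was present in 23 of the 70 promoters of the list (32.9%), in 2 of those of the 7 risen members, in 14.8% of all promoters of tested genes, in 15.1% of those of risen genes and in 15.4% of those of fallen genes. The windows of IAA5 (chr1:5366498-5366747, minus strand) and IAA19 (chr3:5263751-5264000, plus strand) are shown, and they hold 3 elements each. Among the fallen auxin genes with the element, these fell most after IAA30, whose window is not shown. Capitals mark the element on either strand.
IAA5: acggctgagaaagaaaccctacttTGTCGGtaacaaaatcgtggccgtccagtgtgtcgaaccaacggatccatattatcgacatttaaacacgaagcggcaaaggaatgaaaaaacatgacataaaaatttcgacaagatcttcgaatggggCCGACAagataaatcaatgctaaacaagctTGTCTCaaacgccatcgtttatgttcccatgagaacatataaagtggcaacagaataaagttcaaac
IAA19: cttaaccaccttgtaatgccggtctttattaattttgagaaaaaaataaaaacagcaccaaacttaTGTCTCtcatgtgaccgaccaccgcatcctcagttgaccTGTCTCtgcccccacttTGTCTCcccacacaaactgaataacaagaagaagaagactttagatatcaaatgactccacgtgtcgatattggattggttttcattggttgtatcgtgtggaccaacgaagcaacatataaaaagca

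Auxin synthesis and transport genes moved both ways. Of 27 tested, 4 rose (14.8%) and 6 fell (22.2%). The fallen members were carriers, PIN6, PIN7, LAX2, PILS5, ABCB1 and ABCB4. PIN6 had 20.3, 21.1 and 19.8 CPM in overexpression callus, 47.9 CPM on average in pnet1 and 28.7, 32.3 and 35.1 CPM in wild type (-0.65, SE 0.08, adjusted p = 0.000167). LAX2 had 50.96, 50.42 and 51.98 CPM in overexpression callus and 59.4, 67.8 and 72.1 CPM in wild type (-0.38, SE 0.06, adjusted p = 0.00205). TAA1 and YUC2, which make auxin from tryptophan, rose by 0.35 and 1.39, LAX1 by 0.33, and WAG2, a kinase that acts on auxin carriers, by 0.70. YUC2 stood near 1 CPM, at 0.61, 0.859 and 1.56 in overexpression callus and 0.311, 0.359 and 0.478 in wild type. YUC2 lost its call in 8 of the 9 sets with 1 library left out, all but that without overexpression library 1 (adjusted p from 0.011 to 0.268), and WAG2 lost it without overexpression library 3 or wild-type library 2 or 3 (0.0108 to 0.0804). PIN6 and LAX2 kept theirs without each single library. The 4 risen genes numbered 2 without overexpression library 2 or 3 and 0 without wild-type library 3.

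Among transcription factors of the NAC family, 11 of 57 tested members fell (19.3%) and 2 rose (3.51%), with a median of -0.12. In pnet1, 22 were higher and 6 lower. The family is known for stress, senescence and vascular differentiation. NAC003 had 5.55, 5.61 and 5.29 CPM in overexpression callus and 7.01, 8.8 and 10.4 CPM in wild type (-0.67, SE 0.14, adjusted p = 0.00697). VND4, a xylem vessel regulator, had 1.28, 1.66 and 1.56 CPM in overexpression callus and 2.13, 2.4 and 3.08 CPM in wild type (-0.76, SE 0.23, adjusted p = 0.0384). NAC92, which acts in leaf senescence, and NAC035 rose by 0.76 and 0.72. The 11 fallen genes numbered 5 without overexpression library 2 or 3, 6 without wild-type library 2, 3 without wild-type library 3, 7 without pnet1 library 3 and 5 with pnet1 left out of the fit. NAC003 and NAC92 lost the call without wild-type library 3 (adjusted p = 0.0516 and 0.0595, from 0.00125 and 0.00368), and VND4 and NAC035 lost it in 8 and 5 of the 9 sets with 1 library left out (adjusted p up to 0.202 and 0.146, from 0.0294 and 0.019).

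In the salicylic acid, rapid stress, WRKY and jasmonate lists more genes fell than rose, mostly by small amounts. Other immune and stress lists were mixed. Of 130 disease resistance genes, 9 rose (6.92%) and 5 fell (3.85%). Of 35 cold, drought and abscisic acid genes, 5 rose and 5 fell (14.3% each). Of 18 low oxygen genes, 2 rose (11.1%) and 1 fell (5.56%). Of 124 heat shock and chaperone genes, 2 rose (1.61%) and 3 fell (2.42%). Of 42 tested genes of salicylic acid and immune regulation, 1, the flagellin receptor FLS2, rose (2.38%) and 6 fell (14.3%), with a median of -0.14. In pnet1, 18 were higher and 4 lower. EDS1, the hub of immunity signalled by intracellular receptors, had 69.3, 55.4 and 57.8 CPM in overexpression callus, 105 CPM on average in pnet1 and 81.0, 81.4 and 84.8 CPM in wild type (-0.44, SE 0.08, adjusted p = 0.00471). Its partner PAD4 fell by 0.39. CBP60G, an activator of salicylic acid synthesis genes, and EDS5, which exports its precursor from the plastid, fell by 0.41 each, and NPR3, a salicylic acid receptor, by 0.35. GRXC9, a glutaredoxin induced by salicylic acid, had 4.71, 4.52 and 4.21 CPM in overexpression callus and 6.7, 7.12 and 8.77 CPM in wild type (-0.75, SE 0.13, adjusted p = 0.0027). GRXC9, EDS1, CBP60G and EDS5 kept their calls without each single library, and the 6 fallen genes numbered 15 without overexpression library 1. The call of FLS2 was lost without library 2 or 3 of any of the 3 groups and with no filter on low counts.

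Of 27 genes of the rapid stress response, 0 rose and 5 fell (18.5%), ERF6, SZF1, SZF2, WRKY17 and JAZ1, by 0.22 to 0.43, with a median of -0.16. In pnet1 16 were higher and 3 lower. Of 39 WRKY factors, 0 rose and 4 fell (10.3%). The 5 fallen stress genes numbered 9 without overexpression library 1 and 2 each without overexpression library 2 or 3 or wild-type library 3, and the 4 WRKY genes numbered 9, 2 and 1 without overexpression library 1, overexpression library 3 and wild-type library 3 and 2 without pnet1 library 1 or 3. In the jasmonate list, 4 of 40 rose (10%) and 7 fell (17.5%). The fallen genes held JAZ1, JAZ2, JAZ3 and JAZ8, repressors that jasmonate itself induces, at -0.17 to -0.45. The risen genes were ORA59 and ERF1, AOC1 of jasmonate synthesis and JOX2 of its breakdown. Without overexpression library 1 the fallen jasmonate genes numbered 11, and without overexpression library 3 or wild-type library 3 they numbered 2. The 4 risen ones numbered 2 without overexpression library 2 and 1 without wild-type library 2 or 3.

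The lists of callus identity and of vascular tissue were short. Of 19 tested callus and wound regeneration genes, 3 rose (WOX5, MYB94 and PLT7) and 3 fell (ERF114, ANAC071 and WOX11). Each direction was 15.8% of the list, beside 5.97% of all genes that rose and 5.24% that fell. ERF114, a factor that promotes shoot branching, had 15.3, 14.0 and 12.4 CPM in overexpression callus, 29.8 CPM on average in pnet1 and 19.6, 23.1 and 23.7 CPM in wild type (-0.67, SE 0.09, adjusted p = 0.000477). It kept its call without each single library. Without wild-type library 3 the 3 risen genes numbered 0 and the 3 fallen genes 1, and without overexpression library 3 or wild-type library 2 both counts were 1. The risen genes numbered 1 without overexpression library 2, and the fallen genes 5 without overexpression library 1 and with DESeq2. The call of ANAC071 was lost without library 2 or 3 of any of the 3 groups, with library totals, with no filter on low counts and with pnet1 left out of the fit. That of WOX5 was lost without overexpression library 2 or 3 or wild-type library 2 or 3, and that of MYB94 without overexpression library 2 or 3 or wild-type library 3. Of 23 phloem genes, 1 rose (4.35%) and 4 fell (17.4%), and of 27 xylem genes 0 rose and 2 fell (7.41%), VND4 and ACL5. The 4 fallen phloem genes numbered 1 without overexpression library 2 or 3 or wild-type library 3. ACL5, the thermospermine synthase that restrains xylem vessel formation, had 43.6, 37.2 and 36.6 CPM in overexpression callus, 90.7 CPM on average in pnet1 and 48.1, 50.0 and 57.6 CPM in wild type (-0.41, SE 0.08, adjusted p = 0.0069).

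The histone and clock genes that were called rose, most of them by small amounts. Of 44 tested histone genes, 11 rose (25%) and 0 fell, with a median of 0.11 and with 9 of the 11 at 0.26 or less. AT3G46320, a histone H4 gene, had 38.0, 35.9 and 34.4 CPM in overexpression callus, 28.2 CPM on average in pnet1 and 29.5, 29.5 and 31.5 CPM in wild type (0.26, SE 0.06, adjusted p = 0.0168). Histone genes form families of near-identical copies, so reads may be split between them and single values are uncertain. Of 48 DNA replication and mitosis genes, 3 rose and 3 fell (6.25% each), near the shares of all genes. The 11 histone calls numbered 4 when overexpression library 2 or 3 or wild-type library 1 or 2 was left out, 2 without wild-type library 3, 7 without pnet1 library 1 or 3, 7 with DESeq2 and 5 with pnet1 left out of the fit. AT3G46320 lost its call without wild-type library 2 (adjusted p = 0.0566, from 0.0223 over the libraries left out). Of 28 circadian clock genes, 5 rose (17.9%) and 0 fell. These were CCA1, LHY, RVE4 and RVE8, all morning-phased MYB factors of the clock, and GRP7. RVE8 had 25.5, 27.0 and 28.1 CPM in overexpression callus and 21.8, 20.2 and 20.2 CPM in wild type (0.37, SE 0.08, adjusted p = 0.00826). The sources used here do not give the hour of sampling. The 5 clock calls numbered 2 without overexpression library 3 or wild-type library 3, 3 without wild-type library 1 or 2, and 3 with pnet1 left out of the fit.

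Among other components of the nuclear pore few genes were called, with small changes, and no larger a share than of all genes. Of 50 tested genes of the pore and nuclear envelope, PNET1 was the only one that rose (2%) and 2 fell (4%). Of all genes, 5.97% rose and 5.24% fell. NUP205, a scaffold nucleoporin, had 150.4, 145 and 156 CPM in overexpression callus, 195 CPM on average in pnet1 and 171, 178 and 175 CPM in wild type (-0.22, SE 0.04, adjusted p = 0.00571). WIT1, an outer envelope protein of the bridge between nucleus and cytoskeleton, fell by 0.21, a call that was lost in each of the 9 sets with 1 library left out (adjusted p = 0.0536 to 0.139). The median log2 fold change was -0.06. Of 21 tested importins, exportins and Ran pathway genes, 0 rose and 4 fell (19%), and 2 had a positive log2 fold change. RANBP1B, which helps Ran release its cargo, had 134, 145 and 122 CPM in overexpression callus, 165 CPM on average in pnet1 and 160, 179.8 and 177 CPM in wild type (-0.37, SE 0.06, adjusted p = 0.0027). SAD2, an importin beta, and the importin alpha genes IMPA1 and IMPA2 fell by 0.19, 0.17 and 0.15. NUP205 and RANBP1B kept their calls without each single library. The 4 importin calls numbered 1 without overexpression library 2, 2 without library 3, 1 without wild-type library 2 or 3, and 2 with pnet1 left out of the fit. The call of IMPA2 was lost without each single library but overexpression library 1 and wild-type library 1 (adjusted p = 0.0106 to 0.187), with each of the other scalings and with DESeq2. The call of IMPA1 was lost without overexpression library 2 or 3 or wild-type library 2 or 3, and that of SAD2 without overexpression library 1 or 2 or wild-type library 2 or 3.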

How the data were processed

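Both deposited tables hold 9 libraries, and 0 further columns hold values of other samples. The first table holds raw counts per gene, as deposited by the authors. Per the submitters' processing notes, HISAT2 2.0.4, HTSeq 0.6.1p1 and the TAIR10 build were used, with no roles given. The deposited FPKM values of the authors equal the count divided by gene length and a constant per library, as checked on the tables, and were used only for levels per length. The sources used here give no annotation release, strand setting or filter. The file describes AT1G07970 as a Cytochrome B561, amino-terminal protein. That this locus is PNET1 is background knowledge, and its counts match the labels.

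Counts were fitted with edgeR 4.0.16 in R 4.3.3 (filterByExpr, minimum count 10 and total 15; TMM; robust quasi-likelihood; all 9 libraries in 1 model with a mean per genotype). A gene was called when its p, adjusted by Benjamini-Hochberg over all tested genes, was under 0.05. CPM uses TMM sizes, and SE follows from the F statistic. The steps were tested on simulated data. DESeq2 1.42.0, other scalings and filters, a replicate block and single libraries left out were tried as alternatives.

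Members and lists were chosen with earlier results of these data known, and no list was tested as a set. The rule for named genes took PNET1, the 12 largest rises and the 12 largest falls among called genes whose libraries did not overlap and whose higher mean reached 2 CPM, the 4 most abundant called genes per direction, and in a list the called members that changed most, at most 4, or with fewer than 2 called up to 2 abundant members. Other members were named after their values were seen. Of the symbols on the lists, 19 had no match. Positions were the same in the RefSeq reference for 32532 of 32548 shared genes. Not every gene that the rule takes is named in the text, and some items are not reported here.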

Additional observations from a re-analysis of the deposited data

How the results depend on the processing

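The higher level of PNET1 in every library of the overexpression line held in each alternative run, with a log2 fold change of 7.26 to 7.37. With single libraries left out, called genes numbered 737 to 3125, higher genes 368 to 1970 and lower genes 369 to 1155. The lowest counts came without wild-type library 3 and the highest without overexpression library 1. With pnet1 left out of the fit, 1430 genes were called, 763 higher and 667 lower, from fewer libraries. Libraries with the same number did not deviate together (correlations -0.176, 0.048 and -0.166), and a replicate block gave 1726 calls (908 higher, 818 lower), and overexpression and wild-type libraries did not each correlate best with their own number. DESeq2 called 1980 genes (1180 higher, 800 lower), and scaling by library totals alone 2179, of which 63.1% were higher, against 53.2% with TMM. Of 206 named genes called besides PNET1, 70 kept the call without each single library, and 0 changed direction in any alternative run. Genes near 1 CPM rest on 16.7 to 19.3 counts per library, which limits their precision.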
